A study of Mus musculus with 4 samples.

Results

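The genes of amino acid transporters were read in immortalised fibroblasts from mouse embryos, in which loxP sites flank the PA1 gene, on 4 Affymetrix arrays. They were chosen by name: every probe set with a single gene symbol in solute carrier families 1, 3, 6, 7, 36, 38 or 43. This gave 118 of 45037 probe sets, for 58 genes of 18193 with a symbol of their own. A further probe set carried the symbols of Slc1a2 and another gene and was left out. The wild-type cells, labelled PA1 +/+, were infected with the empty retroviral vector (2 arrays). The knockout cells, labelled PA1 -/-, were infected with a retrovirus expressing Cre recombinase, the enzyme that cuts out DNA between loxP sites (2 arrays). All 4 cultures started from conditional cells, were grown in DMEM with serum and were selected with puromycin. The wild-type cells therefore carry the loxP sites and the vector but not Cre. No source used here gives the exons removed or says whether the cells descend from 1 embryo or clone. The labels number the arrays of each genotype 1 and 2 without saying what a number shares or whether cultures were separate, so a p-value reflects the spread among these 4 samples alone, and that spread may be technical.

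Mammalian cells take up amino acids through carriers with overlapping substrates. Some move amino acids inward with sodium, chloride or protons, and others exchange one amino acid for another. Family 1 holds the excitatory amino acid transporters and the neutral exchangers of the ASC type, and family 6 holds carriers of neurotransmitters, glycine, taurine and creatine. Family 7 holds the cationic amino acid transporters and the light chains of heteromeric exchangers, which need a heavy chain of family 3 to reach the membrane. Family 36 couples amino acids to protons, family 38 holds the sodium-coupled neutral transporters (SNATs), and family 43 includes facilitated carriers of large neutral amino acids, such as LAT3. PA1, here read as Pagr1a, is a component of the histone methyltransferase complexes that contain KMT2C or KMT2D and PTIP.

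All values are MAS5 signals, a linear brightness per probe set. The deposited signals had the same trimmed mean, 498, on each array, so a gene is read against the average signal of the array it is on. Differences are knockout minus wild type on the scale log2(signal + 9.963). The upper 50% of probe sets by mean signal were tested, with a boundary near a signal of 62.8. Pagr1a itself checked the labels: its 3 probe sets read between 165 and 1389 on the wild-type arrays and between 7.89 and 113 on the knockout arrays, with no overlap in any of them. Same-numbered arrays of different genotype correlated at 0.971 and 0.977, and same-genotype arrays at 0.918 and 0.920, over the 22519 tested probe sets. Each genotype difference is therefore also given within each number. The fibroblast label held for abundant markers: Vim read from 20164 to 29116 and Col1a2 from 16542 to 20947. Some other fibroblast markers were dimmer: Lum read only 19.0 to 31.1, Dcn 37.9 to 138 and Thy1 94.6 to 280. All 10 tested fibroblast markers were below 0 in the knockout (46.7% of all tested genes were), 7 of them at both numbers (29.3%). Pdgfra differed by -2.07 (-3.41 at number 1 and -0.74 at number 2) and Dcn by -1.38 (-1.53 and -1.24). Dcn, at 41.4 and 37.9 in the knockout, passed the boundary through the wild-type arrays. The summed signal of 11 fibroblast markers was 89063 and 109461 in wild-type and 79376 and 89128 in knockout cells. That of 6 neuronal markers was 1119 and 553 against 560 and 222, most of it Tubb3 (963 and 451 against 384 and 122). Their part in the differences below was not tested.

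Of the 58 transporter genes, 30 had a probe set bright enough to be tested (56 probe sets), and each is read through its brightest probe set unless stated. With genotype as the only term, limma called 0 of these 56 probe sets at an adjusted p under 0.05, against 0% of all 22519. The lowest adjusted p of a transporter probe set was 0.9998. At an unadjusted p under 0.05 there were 6 transporter probe sets lower in the knockout (1.21% of all tested probe sets were) and 0 higher (0.742%). Those 6 belong to only 2 genes, Slc1a3 and Slc7a2, and probe sets of 1 gene read the same transcript. Of the 30 genes, 16 were above 0 (53.3% of all tested genes were) and 14 below (46.7%), with a median log2 difference of 0.04 beside 0.02 for all 10714 tested genes. Within numbers 1 and 2 the medians were 0.18 and -0.08. At both numbers 8 genes were lower, beside 29.3% of all tested genes, 11 were higher (33.9%), and 11 lay on opposite sides of 0 (36.8%). At least 2-fold lower were 2 genes at number 1 (2.47%) and 1 at number 2 (2.13%), and at least 2-fold higher were 1 (1.36%) and 0 (0.896%). With the number as a block, limma called 5 transporter probe sets, all lower in the knockout and all of Slc1a3 or Slc7a2 (1.98% of all tested probe sets were called). The probe sets of Slc1a3 in this count and in that of unadjusted p were bright enough to be tested only through the wild-type arrays. For 2 arrays against 2, no exact test reaches a p under 0.333, and the fit without the block counts any difference between numbers as spread, so the count of 0 does not show that the transporters were unchanged.

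**Figure D1:**
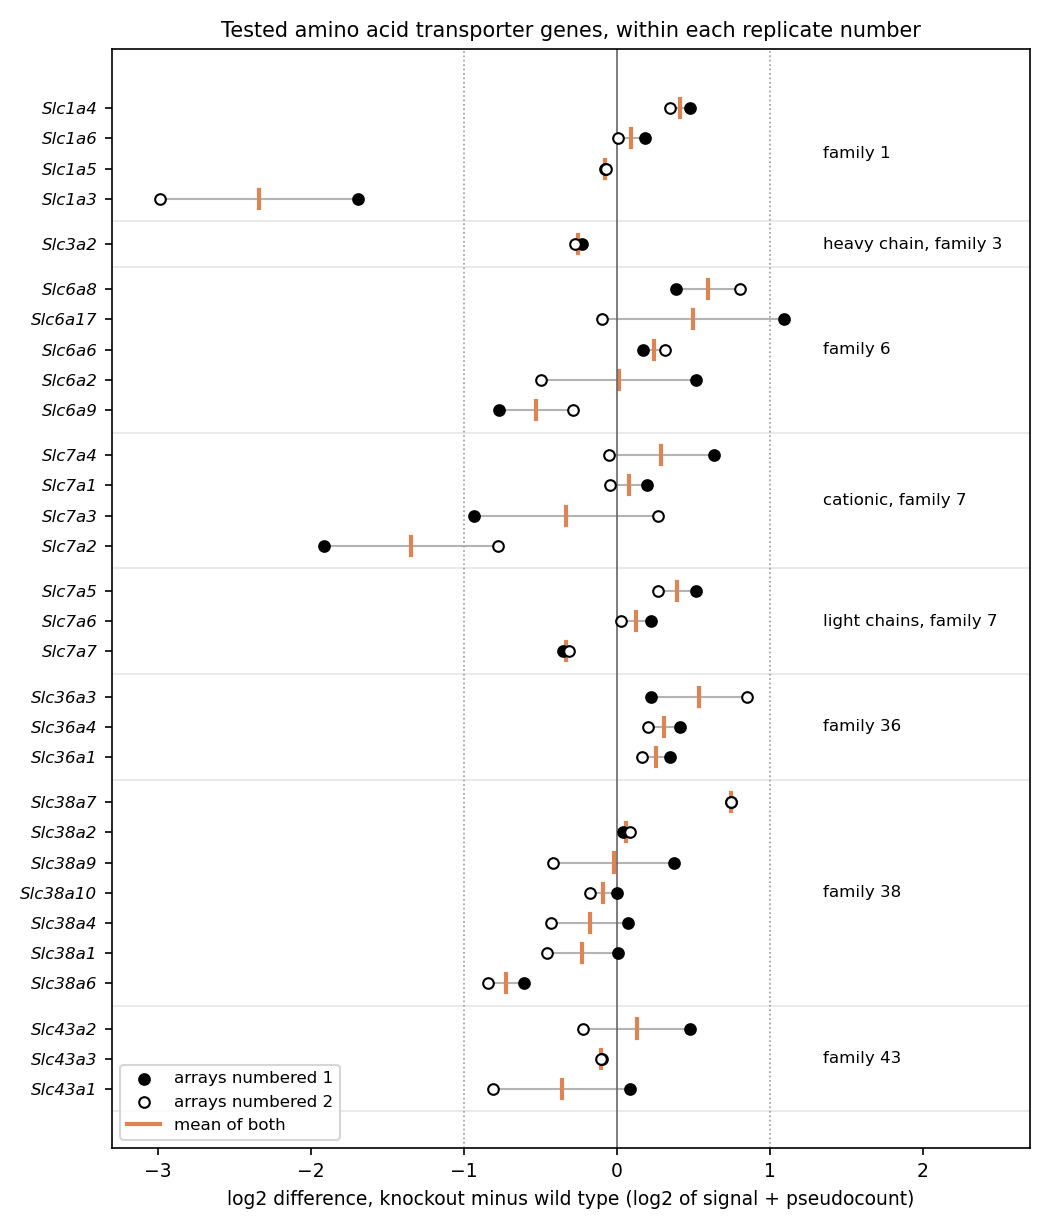
Log2 difference, knockout minus wild type, of the 30 tested transporter genes, grouped by family on the right; filled points are the arrays numbered 1, open points those numbered 2, orange bars their mean, and dotted lines mark 2-fold. Slc1a3 lies beyond the lower dotted line at both numbers (-1.69 and -2.99), and most other genes lie between the dotted lines.

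Among the 30 tested genes the largest mean difference was that of Slc1a3, which encodes the sodium-coupled glutamate and aspartate transporter GLAST (EAAT1), best known from astrocytes. Its brightest probe set read 163 and 211 on the wild-type arrays and 43.4 and 17.9 on the knockout arrays. Both knockout values lay well below both wild-type values. The means were 187 ± 34.2 and 30.7 ± 18.0 (SD, n = 2 each), a log2 difference of -2.34 (SE 0.444; limma adjusted p = 0.9998), which is 5.06-fold on that scale. At number 1 the difference of Slc7a2 was larger (-1.91 against -1.69). Slc1a3 was the only transporter gene at least 2-fold lower at both numbers, beside 0.831% of all tested genes. All 3 of its tested probe sets had knockout signals below the boundary of 62.8 and passed it through the wild-type arrays, so nothing is read from this count. At least 2-fold higher at both numbers were 0 transporters (0.187%).

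The lower signal of Slc1a3 was seen on all of its 6 probe sets and at both numbers. The second tested probe set read 264 and 98.6 in wild-type and 61.9 and 12.2 in knockout cells (-2.11), and another read 149 and 87.1 against 53.4 and 41.4 (-1.12). Its 3 dimmer probe sets, below the boundary for testing, differed by -1.95, -1.63 and -0.63. No probe set had a knockout array above a wild-type array. Because the knockout values lie near the level of the dimmest probe sets, the size of the difference depends on the pseudocount: on the brightest probe set it was -1.40 with a pseudocount at the median signal, 64.94, and -2.68 with a pseudocount of 1. On the probe set with signals of 149 and 87.1 in wild-type cells it was -0.69 and -1.26. With a pseudocount of 1 that dimmer difference stood for the gene, and Slc7a2 then had the larger one (-1.36). The defining markers of astrocytes were dim on the same arrays, with Gfap between 7.31 and 53.2 and Aqp4 between 22.5 and 37.1. Gja1, which fibroblasts also express, read between 4896 and 7574 and made up most of the list's signal. The summed signal of the 6 astrocyte markers was 6855 and 6700 in wild-type and 5104 and 7751 in knockout cells, and its part in the difference was not tested.

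The 250 bases upstream of the Slc1a3 start site are shown because this gene differed most. Those of Slc38a6 and Slc38a7 are shown because these 2 genes of 1 family lay on opposite sides of 0. The sequences are from RefSeq on GRCm38.p6, written 5′ to 3′ on the gene's strand, and capitals mark matches to motifs searched on both strands. They lie at chr15:8710808-8711057 (minus strand), chr12:73286598-73286847 (plus strand) and chr8:95853492-95853741 (minus strand).
Slc1a3: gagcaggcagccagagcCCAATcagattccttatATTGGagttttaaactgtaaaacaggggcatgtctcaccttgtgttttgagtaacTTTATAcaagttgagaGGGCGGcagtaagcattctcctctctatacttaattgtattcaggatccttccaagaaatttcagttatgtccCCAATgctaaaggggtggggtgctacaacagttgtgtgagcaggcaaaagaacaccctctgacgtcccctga
Slc38a6: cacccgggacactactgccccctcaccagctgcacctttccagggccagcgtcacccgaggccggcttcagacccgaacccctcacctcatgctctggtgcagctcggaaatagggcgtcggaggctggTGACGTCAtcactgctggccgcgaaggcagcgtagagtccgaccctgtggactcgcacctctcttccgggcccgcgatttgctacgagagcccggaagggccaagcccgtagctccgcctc
Slc38a7: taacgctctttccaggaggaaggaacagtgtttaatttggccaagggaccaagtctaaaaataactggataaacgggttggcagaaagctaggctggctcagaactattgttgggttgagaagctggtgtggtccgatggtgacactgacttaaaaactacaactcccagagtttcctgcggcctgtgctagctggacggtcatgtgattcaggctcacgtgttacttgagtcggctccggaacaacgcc

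The Slc1a3 window held the letters of the CCAAT box (CCAAT) 3 times, once on the other strand, with 1 GC box (GGGCGG) and 1 TATA box (TATAAA) on the other strand. Of all 32851 promoter windows of this length, 33.8% held CCAAT, 32.7% GGGCGG and 12.4% TATAAA. The Slc38a6 window held the cAMP response element TGACGTCA, which 1.55% of windows hold, and the Slc38a7 window held none of the 5 motifs searched. The C/EBP-ATF element, searched as TGATGNAA and held by 3.45% of windows, was in none of these 3. A match is a description of letters and not a binding site. Of the 30 tested transporter genes, 20 matched an entry in the promoter table.

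The other members of family 1 differed less. Slc1a4, the neutral amino acid exchanger ASCT1, read 325 and 373 in wild-type and 456 and 477 in knockout cells (0.41, SE 0.255; limma adjusted p = 0.9998). The knockout values were both above the wild-type values, as they were on a second probe set (0.43), but not on the other tested probe set (0.18). Slc1a5, the glutamine exchanger ASCT2, read 317 and 474 against 300 and 452, a difference of -0.07. The genes Slc1a1, Slc1a2 and Slc1a7 had no tested probe set.

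Slc7a2, which encodes the cationic amino acid transporter CAT2 and carries arginine, lysine and ornithine, had the next largest difference. Its brightest probe set read 2065 and 928 on the wild-type arrays and 541 and 538 on the knockout arrays. The knockout arrays were nearly equal, and the wild-type arrays differed by more than 2-fold from each other but both lay above them. The log2 difference was -1.34 (SE 0.437; limma adjusted p = 0.9998), at -1.91 for number 1 and -0.78 for number 2. On the other tested probe sets the signals were 289 and 171 against 116 and 83.3 (-1.10), and 201 and 145 against 68.4 and 73.3 (-1.16). Its last, dim probe set read 13.3 and 23.0 against 14.8 and 2.84. All 3 tested probe sets thus separated the genotypes, and the dim one did not.

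**Figure D2:**
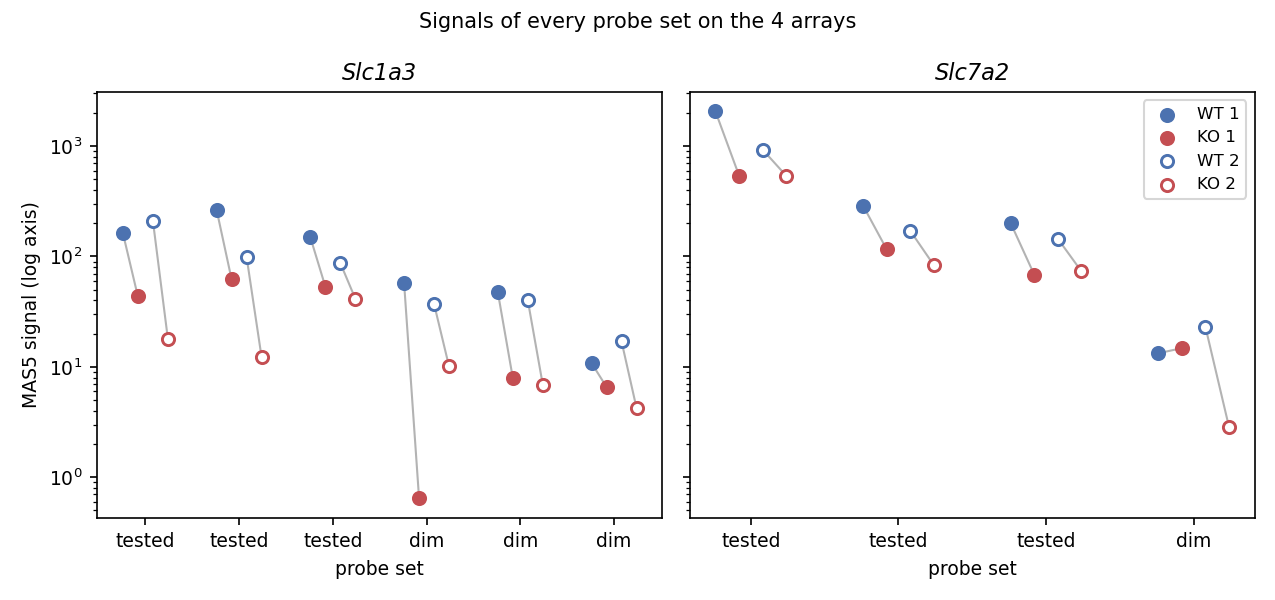
MAS5 signal (log axis) of the 6 probe sets of Slc1a3 and the 4 of Slc7a2 on the 4 arrays, wild type in blue and knockout in red, filled for number 1 and open for number 2, with grey lines joining same-numbered arrays. Knockout points lie below wild-type points for each probe set of Slc1a3 and for the 3 tested ones of Slc7a2, while the dim probe set of Slc7a2 reads 13.3 and 14.8 at number 1.

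The other cationic carriers did not share this pattern. Slc7a1, which encodes CAT1, the widely expressed arginine carrier, read 2394 and 1199 in wild-type and 2747 and 1165 in knockout cells (0.08), so that number and not genotype separated its arrays. Slc7a3 read 228 and 67.7 against 114 and 83.7, lower in the knockout at number 1 (-0.93) and higher at number 2 (0.27). Slc7a4, a family member without shown transport activity, differed by 0.64 at number 1 and -0.05 at number 2.

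The heavy chain gene Slc3a2 (4F2hc, CD98), the partner of several light chains, was slightly lower in the knockout. It read 7142 and 7170 in wild-type and 6103 and 5920 in knockout cells, so its replicates lay close together and did not overlap between genotypes. The log2 difference was -0.25 (SE 0.153; limma adjusted p = 0.9998), at -0.23 and -0.28 within the numbers. Slc3a1, the heavy chain of kidney and intestine, was dim, at 13.8 and 23.0 against 22.7 and 39.0.

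Of the 3 tested light chain genes, 2 were higher at both numbers and 1 was lower. Slc7a5, which encodes LAT1, the exchanger of large neutral amino acids, read 1863 and 1345 in wild-type and 2674 and 1622 in knockout cells (0.39, SE 0.346), higher at both numbers but with overlapping groups. Slc7a6 (y+LAT2) differed by 0.12, and a second probe set by 0.27. Slc7a7 (y+LAT1) read 86.4 and 183 against 65.5 and 145 (-0.33). Slc7a11, which encodes the cystine and glutamate exchanger xCT, was below the boundary by mean signal and not tested. It read 83.1 and 37.9 in wild-type and 44.6 and 38.5 in knockout cells. Bsg and Cd44, proteins that assist membrane carriers, differed by -0.07 and 0.28.

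In family 6, the glycine and the creatine transporter genes lay on opposite sides. Slc6a9, which encodes the glycine transporter GLYT1, read 663 and 538 in wild-type and 384 and 439 in knockout cells (-0.53, SE 0.268). Its second probe set read 227 and 234 against 135 and 145 (-0.68), at least 1.5-fold lower at both numbers. Neither probe set overlapped between genotypes. Slc6a8, the creatine transporter gene, read 1183 and 1336 against 1548 and 2343 (0.60, SE 0.292), with all knockout values above the wild-type values. On its second probe set the difference was 0.66, with overlap between the groups.

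Slc6a6, the taurine transporter gene, had tested probe sets that disagreed. The brightest read 2108 and 2452 in wild-type and 2374 and 3049 in knockout cells (0.24), and a second gave 0.26. The last tested one read 167 and 172 against 78.5 and 119 (-0.75), so no direction is given for this gene. Slc6a17, a neutral amino acid carrier of synaptic vesicles, read 114 and 62.9 against 255 and 58.3: the difference was 1.09 at number 1 and -0.09 at number 2. Its other tested probe set read 42.6 and 53.1 against 130 and 64.2, without overlap. That probe set was higher at both numbers (1.42 and 0.23), but its wild-type signals lay below the boundary for testing. Slc6a2, the noradrenaline transporter gene, differed by 0.52 and -0.49. The limma adjusted p was 0.9998 for each tested gene of this family that is named with values here, and the other 13 genes of family 6 had no tested probe set.

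The 3 tested genes of family 36, the proton-coupled carriers, were all higher in the knockout at both numbers, without passing the test. Slc36a1 (PAT1), a lysosomal and intestinal carrier, read 269 and 340 in wild-type and 345 and 383 in knockout cells (0.26). Slc36a4 read 725 and 311 against 969 and 359 (0.31), and Slc36a3 88.7 and 60.5 against 105 and 117 (0.54, SE 0.337). Slc36a2, the neighbour of both Slc36a1 and Slc36a3 on chromosome 11, was dim and lay the other way, at 76.3 and 70.5 against 42.5 and 54.8.

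Family 38 held 7 tested genes, as many as family 7, of which 2 were above 0 and 5 below. Slc38a6 read 713 and 1114 in wild-type and 464 and 618 in knockout cells, lower at both numbers (-0.61 and -0.84) and without overlap. Its mean difference was -0.72 (SE 0.340; limma adjusted p = 0.9998). Slc38a7 (SNAT7), which exports glutamine and asparagine from lysosomes, lay opposite. It read 287 and 466 against 487 and 789, a log2 difference of 0.75 (SE 0.397) and of 0.74 and 0.75 within the numbers. The lower knockout value was only just above the higher wild-type value, since both genotypes were higher at number 2.

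At a fold of 1.5, chosen after seeing the data, Slc1a3, Slc7a2 and Slc38a6 were lower at both numbers, 3 of 30 genes where 2.55% of all tested genes were, with Slc1a3 tested only through its wild-type signals. Slc38a7 was the 1 gene at least 1.5-fold higher at both (1.46%). Among all 30, the knockout arrays were both below the wild-type arrays for 5 genes (11.3% of all tested genes) and both above for 6 (15%).

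Slc38a2 (SNAT2), a glutamine carrier known to be induced when amino acids are short, was close to level in its brightest probe set. It read 6261 and 6118 in wild-type and 6440 and 6486 in knockout cells (0.06, SE 0.155). Its other tested probe sets gave -0.40 and -0.31, so its direction depended on the probe set. Slc38a10 likewise differed by -0.09 in its brightest probe set, while its other 5 tested probe sets ranged from 0.08 to 0.35. Slc38a9, a lysosomal arginine sensor of the mTORC1 pathway, read 125 and 232 against 166 and 171 (-0.02). In family 43, Slc43a1 (LAT3) read 174 and 163 against 185 and 88.9 (-0.36), lower only at number 2, and Slc43a3 and Slc43a2 differed by -0.10 and 0.13.

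**Figure D3:**
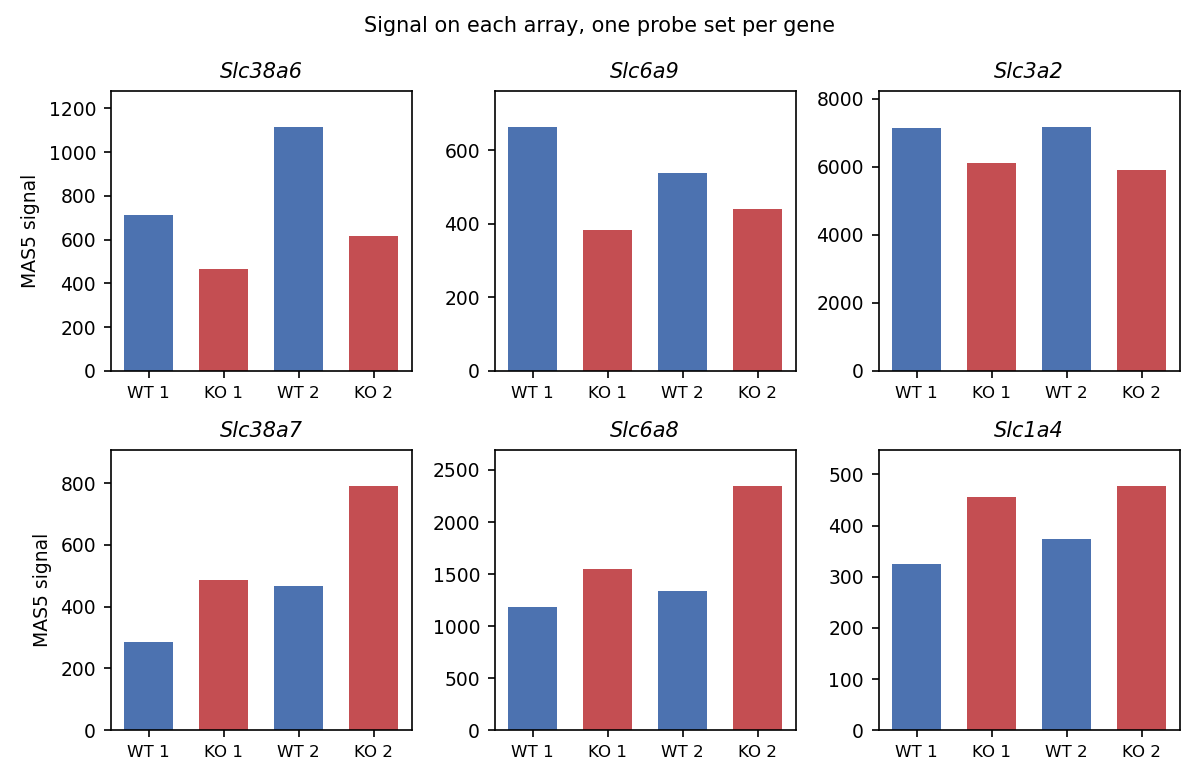
MAS5 signal of 6 transporter genes on each array (bars from 0, wild type in blue, knockout in red, 1 probe set per gene). Slc38a6, Slc6a9 and Slc3a2 in the upper row are lower in the knockout at both numbers, and Slc38a7, Slc6a8 and Slc1a4 in the lower row are higher at both.

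For several transporters the replicate number made a far larger difference than genotype. They were picked after their values were seen. Slc1a6, which encodes the neuronal glutamate transporter EAAT4, read 676 and 769 at number 1 (wild type and knockout) but 14.93 and 15.02 at number 2. The values at number 2 lie far below the boundary for testing, so no ratio is given, and the gene was tested only through number 1. The genotype difference was 0.09. Slc38a4 (SNAT4), an imprinted carrier of neutral and cationic amino acids known from liver and placenta, read 3064 and 3225 at number 1 and 102 and 73.5 at number 2, and its second probe set 1717 and 1677 against 41.3 and 25.3. Slc38a1 (SNAT1) read 1349 and 1358 at number 1 and 198 and 142 at number 2.

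These 3 genes were at least 4-fold lower at number 2 in both genotypes, 3 of 30 transporters where 1.64% of all tested genes were, and 0 of 30 were at least 4-fold higher (0.887%). At 2-fold, Slc36a4 joined them on the lower side, 4 of 30 (4.52%), and 0 were higher (3.78%). Both counts on the lower side include Slc1a6, which was tested only through its signals at number 1, so nothing is read from them. Slc38a1, Slc38a2 and Slc38a4 lie side by side on mouse chromosome 15, with no other protein-coding gene of RefSeq between them. The middle gene, Slc38a2, read alike at both numbers in its brightest probe set, while its neighbours on either side did not. Over the same arrays the summed signal of 6 epithelial markers was 2289 and 3744 at number 1 and 2090 and 2007 at number 2. Most of it was Krt19. Krt18, Cdh1 and Cldn4 were lower at number 2 in both genotypes, and Epcam and Krt8 were higher. The sum of 6 skeletal muscle markers was 295 and 386 at number 1 and 883 and 888 at number 2. Its rise was that of Acta1, from 138 and 159 to 762 and 768. Actc1, Myod1 and Myog were lower at number 2 in both genotypes, and Des and Myf5 were mixed. The part of these markers in the difference between numbers was not tested, and no source used here says what the numbers stand for.

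**Figure D4:**
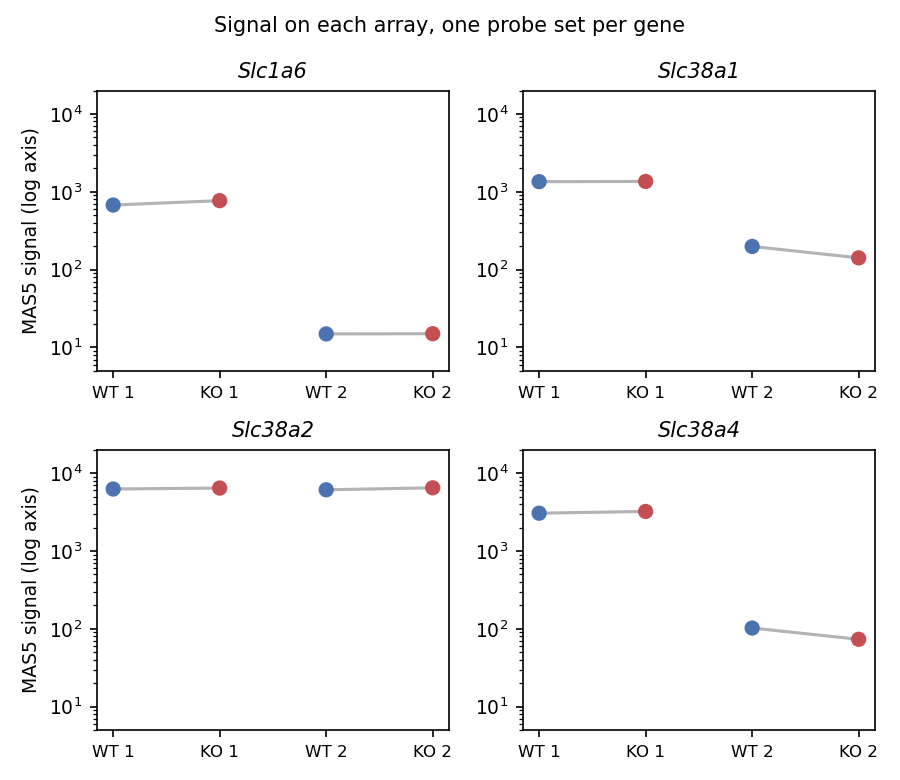
MAS5 signal (log axis) of Slc1a6 and of the 3 neighbouring genes Slc38a1, Slc38a2 and Slc38a4 on each array, with lines joining the wild-type (blue) and knockout (red) arrays of the same number. Slc1a6, Slc38a1 and Slc38a4 are lower at number 2 in both genotypes, whereas Slc38a2 stays between 6118 and 6486.

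The remaining 28 transporter genes had every probe set below the boundary for testing, which applies to the mean signal and not to each array. Of these genes, 21 stayed at or below a signal of 50 on every array, among them the glutamate transporter genes Slc1a1 and Slc1a2 and most neurotransmitter carriers of family 6. The 7 that passed 50 on an array were Slc36a2, Slc38a3, Slc6a15, Slc6a19, Slc6a7, Slc7a10 and Slc7a11, with a highest value of 89.3 for Slc6a19. Slc6a15 and Slc6a7, carriers of branched-chain amino acids and of proline, read 52.2 and 64.9 in the wild-type array numbered 1 and 15.7 and 14.8 in that numbered 2. Detection calls were not used here, so a low signal is not read as absence.

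Genes that work with the transporters were read from fixed lists, and 0 members of any list passed (limma, adjusted over all probe sets). Because 0 of all 22519 tested probe sets passed this fit, that count does not describe the lists. Calls with the number as a block are not given for them. Genes of the amino acid response under ATF4, the factor that induces many transporters when amino acids are short, lay below 0 for 20 of 30 tested genes and above it for 10. At both numbers 14 were lower and 6 higher, with a median of -0.14, whereas 29.3% of all tested genes were lower at both numbers and 33.9% higher, with a median of 0.02. The same shares stand beside each list that follows, and no list was tested against them. The largest differences were those of the transcription factor gene Cebpb (-1.86), the lipoprotein receptor gene Vldlr (-1.49) and the mTORC1 inhibitor gene Ddit4 (-1.24). That of Vldlr was -2.37 at number 1 and -0.61 at number 2, and rested mostly on the wild-type array numbered 1. This array read 413, beside 80.8 on the wild-type array numbered 2. The knockout array numbered 2 read 49.4 for Vldlr, below the boundary for testing. The synthesis genes for serine, glycine, proline and asparagine were close to level, with 6 of 15 lower and 2 higher at both numbers and no difference beyond -0.34 (Gpt2, an alanine aminotransferase gene).

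Glutathione and cystine genes were mixed, with 4 of 15 lower and 6 higher at both numbers. Nqo1, a quinone reductase gene, differed by -0.63 and Gsr, the glutathione reductase gene, by 0.43. Of the glutamine and glutamate genes, 2 of 11 were lower and 5 higher at both numbers, led by the purine synthesis gene Ppat (0.41). Of the genes for amino acid sensing by mTORC1, 11 of 33 were lower and 13 higher, with the subunit gene Mlst8 at 0.59 and the leucine sensor family gene Sesn1 at -0.55. Amino acid carriers of other families were lower at both numbers for 2 of 12 genes and higher for 6, with the mitochondrial aspartate and glutamate carrier gene Slc25a13 at 0.55 and the aromatic amino acid carrier gene Slc16a10 at -0.55.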

How the data were processed

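Biotin-labelled total RNA of 4 samples was read on Affymetrix arrays, per the labels. The authors deposited intensity values: linear MAS5 signals per probe set, per the submitters' processing notes. No source used here gives the version of MAS5, its background settings, its scaling target or a genome build. After 64 control probe sets were left out, 45037 remained, with medians from 63.2 to 66.4 per array. The platform annotation named 1 gene for 34945 of them. All 58 transporter genes were found in the RefSeq gene table (GRCm38.p6) by gene identifier, and 0 symbols changed.

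Signals were analysed as log2(signal + 9.963), the 20th percentile of all values, which makes the differences of dim genes too small. The upper 50% by mean log2 signal (22519) were tested with limma 3.58.1 in R 4.3.3 (eBayes with an intensity trend, genotype as the only term, 2 residual degrees of freedom, 2-sided, Benjamini-Hochberg over all tested probe sets, threshold 0.05). The number of arrays limits the precision. Members and gene lists were chosen with earlier results of these data known. Named with values by rule were 16 genes: those at least 1.5-fold different at both numbers on a tested probe set, the 8 brightest, the heavy chains, genes whose probe sets differed in sign by over 0.5, the largest difference per family, and non-overlapping genes with a difference of at least 0.4. Dim genes above 50 on an array were named besides. Other tested members were named after their values were seen. The alternatives tried were 3 normalizations (cyclic loess, quantile, median scaling), a pseudocount of 1 or 64.94, no filter and an upper 30% filter, averaging the tested probe sets of each gene, eBayes without a trend or with robust estimation, the replicate block, and leaving out each array. Figures used matplotlib 3.10.9 in Python 3.11.15.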

Additional observations from a re-analysis of the deposited data

How the results depend on the processing

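The replicate number as a block changed the calls. With it, limma called 447 of 22519 probe sets (1.98%), of which 329 were lower in the knockout and 118 higher. It called 5 transporter probe sets, all lower in the knockout: 2 of Slc1a3 (adjusted p = 0.00466 and 0.00293) and 3 of Slc7a2 (0.0178, 0.0361 and 0.0446). It called no other transporter, and the 2 probe sets of Slc1a3 were bright enough to be tested only through the wild-type arrays. Deviations of same-numbered arrays from their genotype means correlated at 0.805, but with 2 pairs and no label that ties the numbers, the pairing rests on the data and not on the design. Under every other setting run, the count of transporter probe sets called was 0, and it was 6 as reported at an unadjusted p under 0.05. As reported, that second count was 6 of 56 tested, beside 440 of all 22519. It was 7 of 56 without a trend (503 of 22519), 9 of 118 without a filter (1544 of 45037) and 1 of 28 with the filter at 30% (271 of 13512). The number tested changed with the filter, so these counts are not compared directly.

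Without a filter, 3 transporter genes were at least 1.5-fold higher at both numbers, as the dim Slc6a19 and Slc6a11 joined Slc38a7. With the filter at 30%, 0 genes were at least 2-fold lower at both, because Slc1a3 was no longer tested. Averaged over the tested probe sets of each gene, Slc38a10 was at 0.14, Slc38a2 at -0.22 and Slc6a6 at -0.081, each opposite to its brightest probe set, and the median of the tested genes was -0.03. Of 141 gene values under settings that kept all arrays, these were the 3 that changed direction. The block and the filters leave the difference of a gene as it was, so their values among the 141 could not change direction.

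Leaving out each array, the medians ran from -0.11 to 0.16, and both counts of called probe sets stayed at 0. Slc1a3 ran from -2.81 to -1.87 and Slc7a2 from -1.92 to -0.77. Slc7a1 ran from -0.54 to 0.69, Slc7a6 from -0.12 to 0.36, Slc38a10 from -0.21 to 0.039 and Slc43a1 from -0.85 to 0.13, and the other 12 of 16 genes kept their direction but not always their size. Apart from Slc6a6 and Slc7a5, those 12 did not overlap between genotypes, so leaving out an array could not change their direction. Slc7a5 ran from 0.04 to 0.75, Slc38a7 from 0.40 to 1.09, Slc38a6 from -1.04 to -0.41, Slc6a8 from 0.30 to 0.89 and Slc36a3 from 0.29 to 0.78. Such fits hold unequal replicate numbers in the genotypes and take the lone array to vary like the other group. Counts at both numbers cannot be made without an array. Dim genes are limited by their signal, and 28 of 58 genes could not be tested.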
